A study of Mus musculus with 36 samples.

Results

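The acute phase proteins examined here are a set of 10 genes chosen by name in mouse hepatocytes: Saa1, Saa2, Saa3, Lcn2, Hp, Orm1, Fgb, Hamp, Apcs and Socs3. They were followed as reads summed per gene, and are 10 of the 52230 genes of the summed table. All 10 passed the filter on low counts, which kept 12177 genes. The RNA came from hepatocytes isolated by collagenase perfusion from 3 female mice (age 14 wk) of the P446L line (GCKR-P446L-EMI-B6N), which carries a human variant of Gckr, the gene of the glucokinase regulatory protein (GKRP). By its label mouse 3 was Gckr-446P/L, while mice 1 and 2 were Gckr-446L, and the series' design text calls the hepatocytes GKRP-deficient. Each mouse gave 1 preparation of hepatocytes, which was divided over 10 conditions: untreated (no vector), an adenoviral vector for GKRP at endogenous glucokinase (GK), with human GKRP-446P (hP), human GKRP-446L (hL), mouse GKRP-446P (mP) or mouse GKRP-446L (mL), a vector for GK alone (GK), and the GK vector together with each of the 4 GKRP vectors (GK+hP, GK+hL, GK+mP and GK+mL). The untreated and GK conditions had 6 cultures each, from the same 3 mice, and the other conditions 3 cultures each, 36 in all. A condition with an empty adenoviral vector was not analysed here, so a difference from untreated hepatocytes is that of the vector and its GKRP or GK together. The cultures spent 24 h in medium with 5 mM glucose and then 4 h with 25 mM glucose. All 10 conditions had 10 nM dexamethasone and 10 nM insulin overnight, and the cells attached in medium with serum, so there was no culture without a glucocorticoid, and the protocols name no added cytokine.

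The acute phase response is the change in the proteins that the liver secretes during infection or injury. Cytokines released by macrophages, chiefly interleukin 6 acting through the transcription factor STAT3 and interleukin 1 acting through NF-kB and C/EBP factors, raise the transcription of these genes in hepatocytes, and glucocorticoids enhance it. Hepcidin is also controlled by bone morphogenetic proteins (BMP) through SMAD factors, which tie it to iron stores. By role the 10 genes are 3 serum amyloid A proteins (Saa1 and Saa2, secreted by the liver and carried on lipoproteins, and Saa3, which macrophages and adipose tissue also make), the pentraxin serum amyloid P (Apcs), the binding proteins lipocalin 2 (Lcn2, which binds bacterial siderophores), haptoglobin (Hp, which binds free haemoglobin) and orosomucoid 1 (Orm1, a plasma carrier of small molecules), the beta chain of the clotting protein fibrinogen (Fgb), the iron hormone hepcidin (Hamp), and the intracellular inhibitor Socs3, which is a target of STAT3 and shuts off signalling from the interleukin 6 receptor.

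The promoters are shown for 5 members that stand out in the results below. Saa1 and Saa2 followed each other across samples, and Lcn2 had the largest share of variance between mice. Hamp and Socs3 were the members with the largest differences between the 446L and 446P vectors. No expression result below uses the promoter sequences. Each sequence runs 5′ to 3′ on the strand of the gene from 250 bases before to 50 bases after the start of its main transcript, read from GRCm39. Capitals mark matches to a STAT motif (TTCNNNGAA, which reads the same on both strands), a C/EBP motif (TTNNGNAAT, either strand) or the NF-kB consensus (either strand).
Saa1, chr7:46392498-46392797, minus strand: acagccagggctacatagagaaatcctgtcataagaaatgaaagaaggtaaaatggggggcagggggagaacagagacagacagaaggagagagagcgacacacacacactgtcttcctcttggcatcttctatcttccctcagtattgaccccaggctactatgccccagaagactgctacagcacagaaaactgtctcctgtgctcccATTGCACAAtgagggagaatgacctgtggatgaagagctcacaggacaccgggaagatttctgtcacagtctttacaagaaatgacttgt
Saa2, chr7:46400964-46401263, plus strand: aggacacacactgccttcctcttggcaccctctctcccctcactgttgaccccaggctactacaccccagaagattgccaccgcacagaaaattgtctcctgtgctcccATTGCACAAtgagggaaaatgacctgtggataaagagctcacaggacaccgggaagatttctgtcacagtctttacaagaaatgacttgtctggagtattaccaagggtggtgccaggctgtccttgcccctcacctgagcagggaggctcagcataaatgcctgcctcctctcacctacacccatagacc
Lcn2, chr2:32277760-32278059, minus strand: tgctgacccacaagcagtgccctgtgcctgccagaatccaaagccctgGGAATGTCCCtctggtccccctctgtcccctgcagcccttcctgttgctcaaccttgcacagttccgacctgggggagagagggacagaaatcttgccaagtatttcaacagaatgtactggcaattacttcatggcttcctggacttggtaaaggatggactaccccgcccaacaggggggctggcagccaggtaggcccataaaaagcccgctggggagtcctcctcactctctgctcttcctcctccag
Hamp, chr7:30643655-30643954, minus strand: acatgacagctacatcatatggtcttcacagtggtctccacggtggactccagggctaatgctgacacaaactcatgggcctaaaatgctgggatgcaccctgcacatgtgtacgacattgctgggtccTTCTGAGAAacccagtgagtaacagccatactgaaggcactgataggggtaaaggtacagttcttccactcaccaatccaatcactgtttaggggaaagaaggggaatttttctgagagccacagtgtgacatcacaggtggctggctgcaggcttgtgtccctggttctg
Socs3, chr11:117860074-117860373, minus strand: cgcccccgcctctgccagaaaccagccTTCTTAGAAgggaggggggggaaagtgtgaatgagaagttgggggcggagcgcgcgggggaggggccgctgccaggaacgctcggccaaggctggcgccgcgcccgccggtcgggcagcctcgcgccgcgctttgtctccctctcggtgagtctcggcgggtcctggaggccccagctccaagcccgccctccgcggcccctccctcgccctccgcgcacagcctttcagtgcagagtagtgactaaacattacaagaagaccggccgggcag
The STAT letters lay in the promoters of 3 of the 10 members, Hamp (bases -121 to -113 from the start), Socs3 (-223 to -215) and Fgb (-162 to -154), and in 8.82% of the 21757 promoters of protein-coding genes of the same length. The C/EBP letters lay in 4 members (Saa1, Saa2, Orm1 and Fgb) and in 11.6% of all promoters. The NF-kB consensus lay in 1 member, Lcn2 (-202 to -193), and in 8.97% of promoters, and the BMP-responsive letters GGCGCC in 1 member, Socs3, and in 12.4%. These are matches of letters in a short window and show no binding. The Saa1 and Saa2 genes lie on chromosome 7 in opposite orientation, and their promoters were 83.9% identical over 199 bases when moved against each other by 101 bases, with the C/EBP match inside the shared stretch. The transcripts of Saa1 and Saa2 shared 42.8% and 46.6% of their 31-base words, so the split of reads between these genes is uncertain. Orm1 shared 11.7% of its words with Orm2, and Hamp 14.5% with Hamp2.

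Libraries held between 3924674 and 10046158 reads (median 5980280), and the 10 members together took between 2.66% and 3.88% of a sample's reads (median 3.05%). Levels are given as read counts scaled to library size after TMM normalization (CPM), and the 2 cultures of 1 mouse and condition were summed, which gave 30 samples (n = 3 mice per condition). Mouse Gckr was at 8934 to 23273 CPM in the 12 cultures with a mouse GKRP vector and at 37.1 to 118 CPM in 23 of the 24 without, while 1 GK culture of mouse 3 held 1462 CPM. Leaving that culture out changed no call of a member. Reads of the human vectors were not assessed here. The GK+mP library of mouse 1 stood apart: it held the highest value among the 30 samples of Saa1 (7607 CPM), Saa2 (6468 CPM), Saa3 (1124 CPM), Hp (12363 CPM), Orm1 (3413 CPM) and Apcs (164 CPM). Values without it are given beside the results below that rest on it.

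Compared per length of transcript, Saa1, Saa2 and Lcn2 were the most abundant members and Socs3 the least. In the authors' TPM the median over the 36 libraries was 13370 for Saa1, 11333 for Saa2, 10158 for Lcn2, 6556 for Hp, 4568 for Orm1, 2006 for Saa3, 800.4 for Fgb, 159 for Apcs, 80.6 for Hamp and 0.864 for Socs3. CPM divided by the annotated length in kilobases gave the same order apart from Saa2 and Lcn2, which changed places (8507 for Saa1, 7335 for Lcn2, 7329 for Saa2 and 1.22 for Socs3). The TPM of a member differed between the highest and the lowest library by 5.29-fold (Orm1) to 36.2-fold (Hamp), and its CPM by 1.47-fold (Orm1) to 5.50-fold (Hamp). The effective length that the TPM divide by was between 15.9 and 491 bases for Saa1 in different libraries, so counts were used for all comparisons between samples. By mean CPM, Hp ranked 7 among all genes, Lcn2 9, Saa1 14, Saa2 22, Fgb 36 and Orm1 47, and Socs3 was close to the filter, with 9 to 48 reads in a sample.

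**Figure D1:**
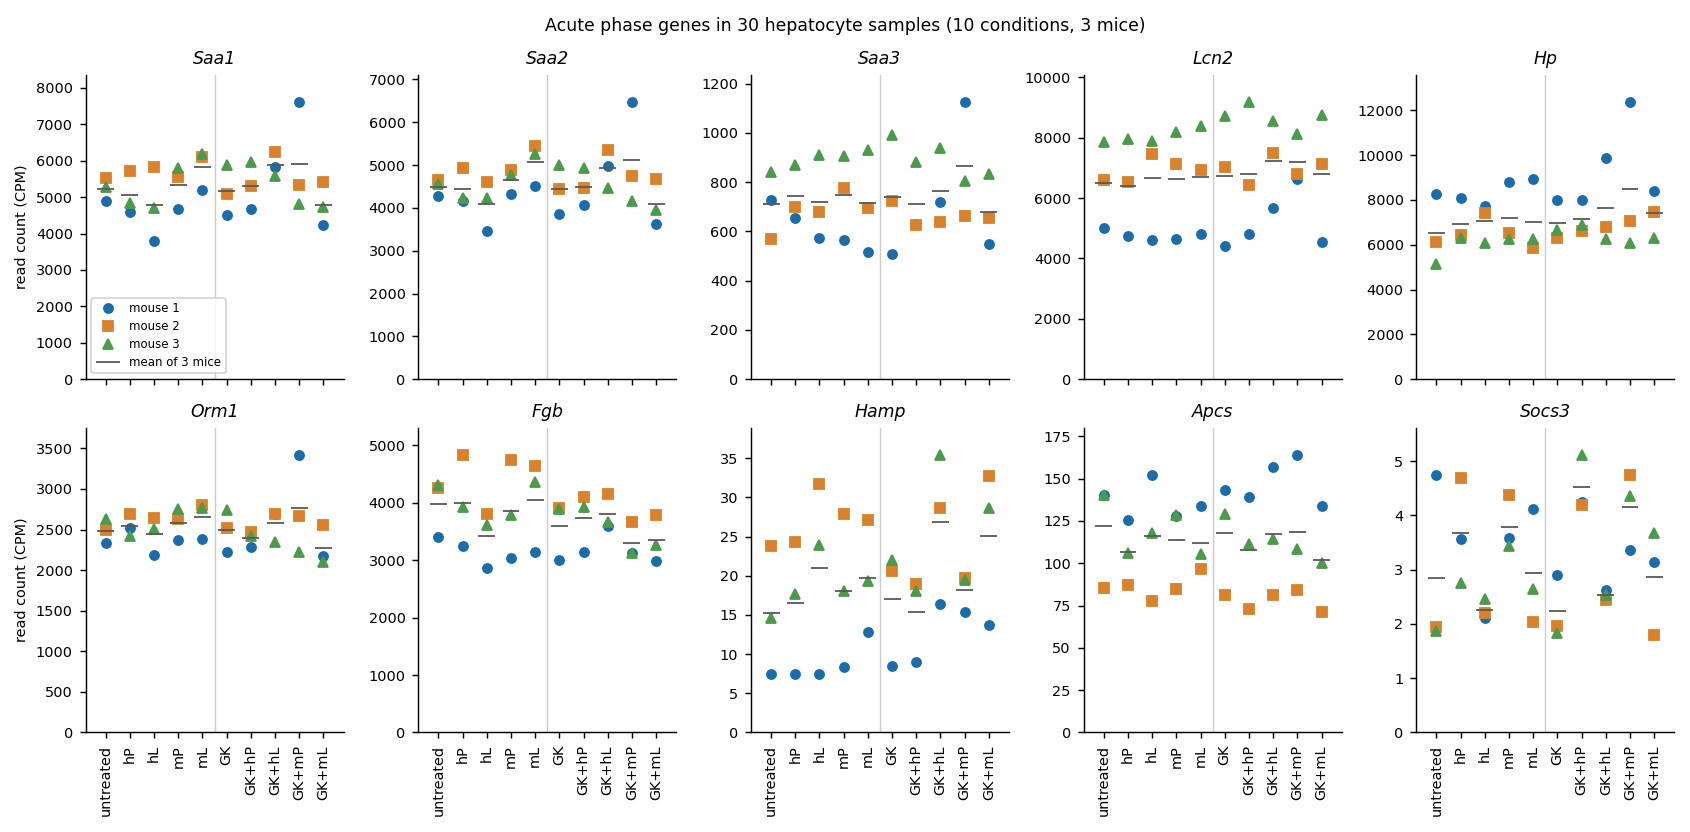
Read counts (CPM) of the 10 genes in the 10 conditions, with 1 point per mouse and a bar at the mean of the 3 mice, and a line between endogenous and overexpressed GK. In each of the 10 conditions Lcn2 is lowest in mouse 1 and highest in mouse 3, Apcs is lowest in mouse 2 and Hamp lowest in mouse 1, the GK+mP sample of mouse 1 is high for Saa1, Saa2, Saa3, Hp and Orm1, and the condition means of Lcn2 lie between 6399 and 7236 CPM.

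The condition means of the secreted proteins moved little. Lcn2 ran from 6399 ± 1612 CPM (hP, SD, n = 3) to 7236 ± 1451 CPM (GK+hL), a ratio of 1.13. The ratio of the highest to the lowest condition mean was 1.20 for Apcs, 1.22 for Orm1 and Fgb, 1.24 for Saa1, 1.25 for Saa2, 1.27 for Saa3 and 1.31 for Hp. For Saa1, Saa2, Saa3, Hp and Orm1 the highest condition was GK+mP, the condition that holds the library that stood apart. Without that library the highest condition was GK+hL for Saa1, Saa3 and Hp and mL for Saa2 and Orm1, and the ratios were 1.23 for Saa1, 1.24 for Saa2, 1.13 for Saa3, 1.17 for Hp and 1.16 for Orm1. Hamp and Socs3, the least abundant members, had the widest ranges: Hamp from 15.3 ± 8.19 CPM (untreated) to 26.8 ± 9.66 CPM (GK+hL), a ratio of 1.76, and Socs3 from 2.23 ± 0.58 CPM (GK) to 4.52 ± 0.51 CPM (GK+hP), a ratio of 2.02. The cultures of 1 mouse and condition (6 pairs) differed by a median of 0.0511 on the log2 scale for Hp to 0.288 for Socs3, against 0.173 for the median gene.

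The first comparison asked how far the preparations of the 3 mice differed, since each mouse went through all 10 conditions. Of the 10 members 6 differed between mice: Hamp, Apcs, Lcn2, Hp, Saa3 and Fgb (edgeR's F test with the condition in the model, adjusted p under 0.05 and a largest fold of at least 1.3). These were 6 of 10 members beside 39.2% of all 12177 genes tested, and 6 members passed at an unadjusted p under 0.05. Saa1, Saa2, Orm1 and Socs3 did not pass. With 1 preparation per mouse the test measures the spread between cultures of the same preparation, and the mouse, its preparation and, for mouse 3, its labelled genotype cannot be told apart. In these bulk cultures fewer cells of a type and less RNA per cell cannot be told apart either. Lcn2 was at 4405 to 6636 CPM in the 10 samples of mouse 1 (median 4766), at 6432 to 7498 CPM in mouse 2 (median 6983) and at 7844 to 9176 CPM in mouse 3 (median 8287). The range of mouse 3 overlapped neither of the others. The share of all genes with ranges apart like this was not counted, here or for the members below. Mouse 3 was above mouse 1 by 0.75 (log2, SE 0.06, adjusted p = 5.04e-10) and above mouse 2 by 0.26 (SE 0.06, adjusted p = 8.99e-04).

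Hp had the opposite order, with 7709 to 12363 CPM in mouse 1 (median 8334), 5850 to 7476 CPM in mouse 2 (median 6564) and 5135 to 6888 CPM in mouse 3 (median 6252). Every sample of mouse 1 was above every sample of the other two mice, and mouse 3 was below mouse 1 by a log2 difference of -0.50 (SE 0.06, adjusted p = 1.71e-06). Mice 2 and 3 overlapped in Hp, with a difference of -0.10 (SE 0.06, adjusted p = 0.288). Apcs was lowest in mouse 2, at 71.2 to 96.3 CPM, against 126 to 164 CPM in mouse 1 and 100.2 to 140 CPM in mouse 3. Neither range overlapped that of mouse 2, which was below mouse 1 by -0.79 (SE 0.06, adjusted p = 3.85e-10). Fgb was lowest in mouse 1 (2857 to 3587 CPM), and mouse 2 (3672 to 4824 CPM) was above it in every sample, by 0.41 (SE 0.05, adjusted p = 1.49e-07). Mouse 3 (3132 to 4355 CPM) overlapped both.

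Hamp showed the largest difference between mice. It was at 7.42 to 16.3 CPM in mouse 1, at 18.9 to 32.8 CPM in mouse 2 and at 14.6 to 35.4 CPM in mouse 3. Mouse 2 was above mouse 1 by 1.29 (SE 0.12, adjusted p = 1.29e-08) with no overlap, and mouse 3 was above mouse 1 by 1.03 (SE 0.12, adjusted p = 7.57e-07), whereas mice 2 and 3 differed by -0.26 (SE 0.12, adjusted p = 0.101). Saa3 was highest in mouse 3, at 803 to 993 CPM, against 569 to 778 CPM in mouse 2 and 509 to 1124 CPM in mouse 1, where the highest value is the GK+mP library. Mouse 3 was above mouse 1 by 0.46 (SE 0.10, adjusted p = 9.45e-04) and above mouse 2 by 0.41 (SE 0.10, adjusted p = 0.00406). The largest difference between mice was 0.18 for Saa1 (adjusted p = 0.140), 0.15 for Saa2 (0.177), 0.10 for Orm1 (0.384) and 0.26 for Socs3 (0.362). Without mouse 1 only 2 members differed between the remaining mice, Apcs and Saa3, against 14.9% of genes. Without mouse 2 there were 4 (Lcn2, Hp, Saa3 and Hamp), against 22.8%, and without mouse 3 there were 5 (Apcs, Lcn2, Hp, Fgb and Hamp), against 32.9%. With a transcript length offset 2 did, Apcs and Hp, against 19.4% of genes. Leaving out the GK+mP library of mouse 1 changed none of the 6 calls.

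**Figure D2:**
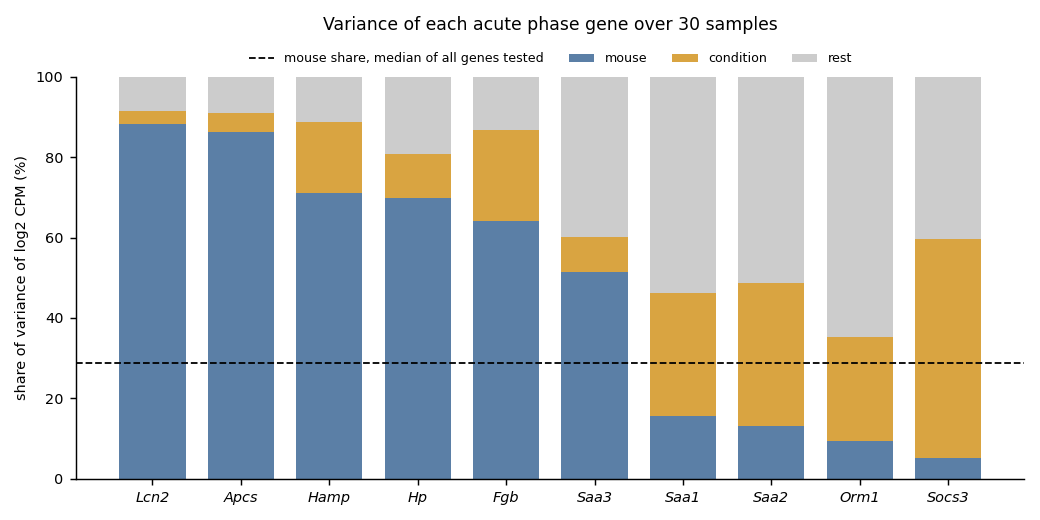
Share of the variance of log2 CPM over 30 samples that lay between mice, between conditions and in the rest, as stacked bars that sum to 100% for each gene, with the median mouse share of all genes tested as a dashed line (28.7%). The mouse share runs from 88.2% for Lcn2 to 5.20% for Socs3, where the condition share is the largest of the 10 genes at 54.6%.

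Split by source, the mouse accounted for 88.2% of the variance of log2 CPM over the 30 samples for Lcn2, 86.2% for Apcs, 71.1% for Hamp, 69.9% for Hp, 64.0% for Fgb and 51.4% for Saa3. It accounted for 15.7% for Saa1, 13.2% for Saa2, 9.37% for Orm1 and 5.20% for Socs3. The median over all genes tested was 28.7% for the mouse and 25.7% for the condition. The condition accounted for 54.6% of the variance of Socs3, 35.5% of that of Saa2 and 30.4% of that of Saa1, and for 3.40% of that of Lcn2. With 10 conditions and 3 mice, part of each share arises from the scatter of single samples. Scatter alone gives a larger share to the 10 conditions than to the 3 mice. The mouse and condition shares are therefore not on an equal footing, for a member or for the median gene. How far a condition share exceeds scatter was not tested.

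The second comparison asked whether expressing GKRP or GK changed these genes. The main fit had no mouse term, so it did not use the pairing of samples within a mouse. With the 4 GKRP vectors averaged and set against untreated hepatocytes, 0 of the 10 members were called (edgeR, a fold of 1.3 or more or of 0.7 or less, at an adjusted p under 0.05), against 1.89% of all genes, and 0 passed at an unadjusted p under 0.05. For GK against untreated hepatocytes 0 members were called, against 0.00821% of genes. For the mean of the 4 vectors with GK against GK alone 0 were called, against 1.61% of genes, for GK with GKRP against GKRP 0, against 0.0164%, and for the interaction of GKRP and GK 0, against 0% of genes. For GK against the 5 combined groups of endogenous GK 0 were called, against 0.427% of genes. DESeq2 without the mouse also called 0 members in these 6 comparisons, as did both tools with the mouse as a block. The shares of all genes called in those other fits are not given here. These comparisons share untreated, GK or GKRP samples, so they are not independent. A count of 0 among 10 genes is close to the background shares of the main fit.

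The intervals show what size of change remained possible. For the GKRP vectors against untreated, the log2 fold change of Saa1 was 0.00 (SE 0.14, 95% interval -0.28 to 0.28), that of Orm1 0.04 (SE 0.11, -0.18 to 0.26), that of Hp 0.12 (SE 0.20, -0.29 to 0.52) and that of Lcn2 0.03 (SE 0.25, -0.49 to 0.54). A model with the mouse as a block gave narrower intervals, of -0.15 to 0.18 for Lcn2 and -0.06 to 0.32 for Hp. For GK against untreated the blocked interval was -0.19 to 0.23 for Lcn2, -0.12 to 0.37 for Hp, -0.32 to 0.03 for Fgb and -0.33 to 0.28 for Saa1. The fibrinogen chain Fgb was lower with GK than untreated in 3 of 3 mice (3003, 3911 and 3896 CPM against 3397, 4256 and 4301 CPM), by -0.15 (SE 0.19, adjusted p = 1.000), which was not past the threshold. Hamp was higher with a GKRP vector than in the untreated sample of the same mouse in 12 of 12 pairs that share 3 untreated samples, with a median log2 ratio of 0.25. The fitted difference was 0.29 (SE 0.43, adjusted p = 1.000) and with the mouse as a block 0.30 (SE 0.17, adjusted p = 0.384), so it was not called.

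**Figure D3:**
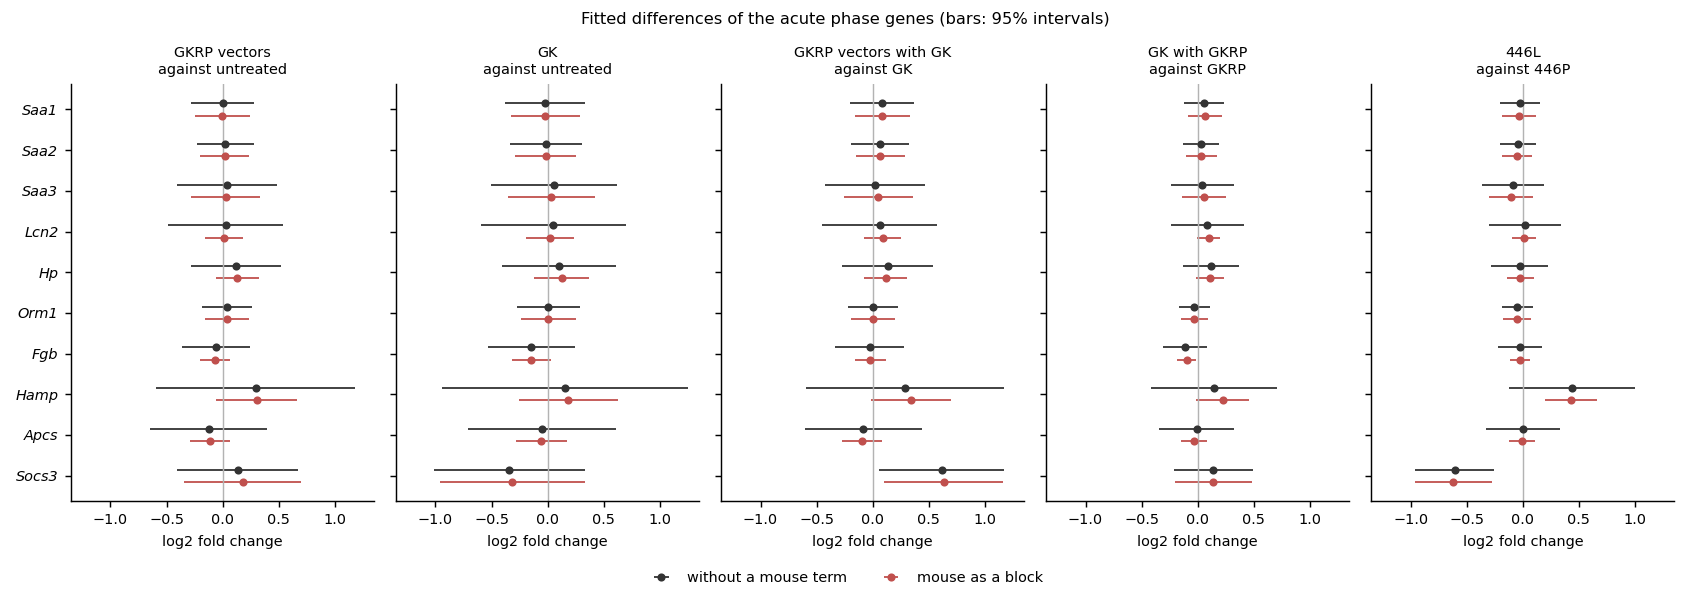
Log2 fold changes (x axis) of the 10 genes in 5 comparisons over 30 samples, as points with 95% intervals from edgeR, in black without a mouse term and in red with the mouse as a block. The intervals of Lcn2, Hp, Apcs and Hamp narrow with the block, and for 446L against 446P the interval of Hamp then runs from 0.20 to 0.66 and that of Socs3 from -0.96 to -0.27.

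Socs3 was the member with the largest differences between conditions. With GK alone it was at 2.90, 1.96 and 1.84 CPM in mice 1 to 3, and with GK+hP at 4.25, 4.20 and 5.11 CPM, so the 3 values with GK+hP were above the 3 with GK. With GK+mP it was at 3.37, 4.74 and 4.35 CPM, also above GK alone. The share of all genes that separate in this way was not counted. The log2 fold change of the mean of the 4 vectors with GK against GK was 0.61 (SE 0.27, edgeR adjusted p = 0.415), and 10 of 12 pairs were higher. These values rest on 23 to 32 reads per sample with GK (2 cultures each) and 25 to 39 reads with GK+hP. The abundant secreted members gave values near 0 in the same comparison, from -0.08 for Apcs and 0.00 for Orm1 to 0.13 for Hp.

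The third comparison, between the 446L and the 446P form of GKRP, used 12 samples of each, which pair within mouse, species of GKRP and GK level. The main fit had no mouse term and did not use this pairing. Fits with the mouse as a block are given further below. In the main fit 0 of the 10 members were called, against 0.00821% of genes, with 1 member, Socs3, at an unadjusted p under 0.05. Hamp and Socs3 had the largest differences, in opposite directions, and the other 8 members lay between -0.09 (Saa3) and 0.02 (Lcn2). Hepcidin was at 7.45 to 27.9 CPM with the 446P vectors (median 18.0) and at 7.50 to 35.4 CPM with the 446L vectors (median 25.5), so the groups overlapped. Within pairs Hamp was higher with 446L in 10 of 12, and the mean log2 ratio was 0.33, 0.42 and 0.51 in mice 1, 2 and 3. In 1 of the 10, human GKRP at endogenous GK in mouse 1, the values were nearly equal (7.45 and 7.50 CPM). The share of all genes with as many pairs in 1 direction was not counted, here or for Socs3 below. Between hP and hL with GK, Hamp went from 9.01, 18.9 and 18.1 CPM to 16.3, 28.7 and 35.4 CPM, and the ratios of mice 1 and 3 there were the highest of the 12. The 2 pairs in which it was not higher were mouse GKRP at endogenous GK in mouse 2 (27.9 and 27.1 CPM) and mouse GKRP with GK in mouse 1 (15.3 and 13.8 CPM), where the 446P sample is the library that stood apart.

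The log2 fold change of Hamp for 446L against 446P was 0.44 (SE 0.27, adjusted p = 1.000) without a mouse term and 0.43 (SE 0.11, adjusted p = 0.074) with the mouse as a block in edgeR, where 0.485% of genes and 0 members were called. With the block DESeq2 gave 0.43 (SE 0.11, adjusted p = 0.0166), which called Hamp, against 0.788% of genes. Without the GK+mP library of mouse 1 and with the block, Hamp was at 0.51 (SE 0.10, adjusted p = 0.00931) and was called in edgeR too, against 0.514% of genes. Among the alternatives run, Hamp was called only in those fits, both of which had the mouse in the model. Hamp2, the neighbouring paralog that shares part of its sequence, was at -0.01 (SE 0.28) in the same comparison. With the reads of Hamp and Hamp2 summed, the difference was 0.27 (SE 0.27, adjusted p = 1.000).

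Socs3 went the other way. It was at 2.76 to 5.11 CPM with the 446P vectors (median 4.22) and at 1.79 to 4.12 CPM with the 446L vectors (median 2.49), with overlap, and was lower with 446L in 11 of 12 pairs. With hP and hL at endogenous GK it was at 3.57, 4.69 and 2.76 CPM against 2.11, 2.20 and 2.45 CPM. With GK it was at 4.25, 4.20 and 5.11 CPM against 2.63, 2.44 and 2.53 CPM. For human GKRP every 446P value was thus above every 446L value, the closest being 2.76 and 2.63 CPM. The share of all genes that separate as fully was not counted. For mouse GKRP the forms overlapped, with 3.58, 4.37 and 3.43 CPM for mP against 4.12, 2.04 and 2.65 CPM for mL, and 3.37, 4.74 and 4.35 CPM for GK+mP against 3.14, 1.79 and 3.68 CPM for GK+mL. Whether the species differ was not tested. The log2 fold change was -0.61 (SE 0.17, adjusted p = 0.739) and with the mouse as a block -0.62 (SE 0.17, adjusted p = 0.089). Without the GK+mP library of mouse 1 and with the block it was -0.68 (SE 0.17, adjusted p = 0.0468), which called Socs3, against 0.514% of genes. The lowest samples held 9 and 10 reads of Socs3.

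**Figure D4:**
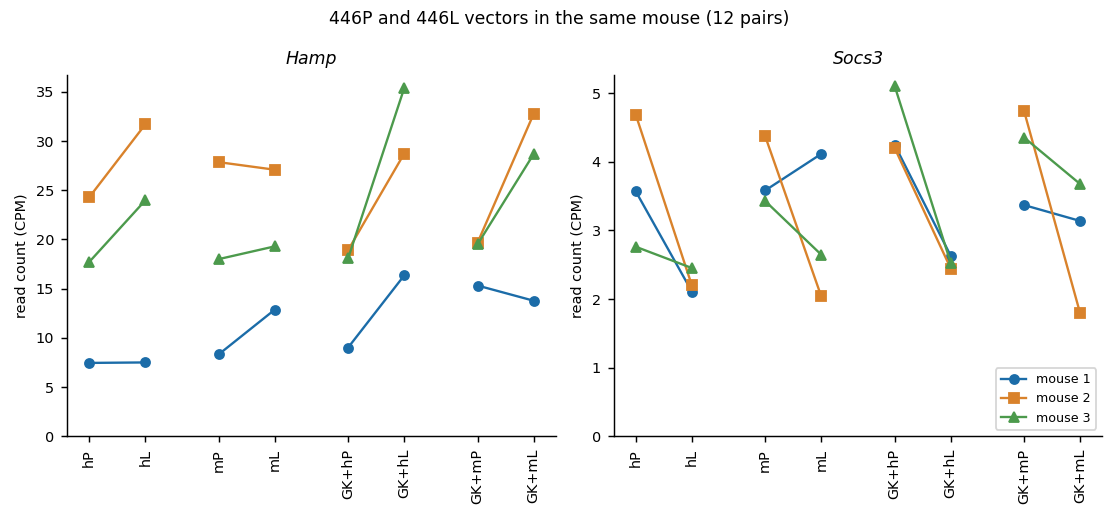
Read counts (CPM) of Hamp and Socs3 with the 446P and the 446L vector, with a line for each pair of samples of the same mouse, species of GKRP and GK level. Hamp is higher with 446L in 10 of 12 pairs and Socs3 lower in 11 of 12.

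Taken 1 vector at a time, the members called in the main fit were 0 in each of the 8 comparisons. The background was 0.78% of genes for hP against untreated, 0.879% for hL, 1.12% for mP and 1.05% for mL, and 0.879% for GK+hP against GK, 0.599% for GK+hL, 1.64% for GK+mP and 0.591% for GK+mL. The values at an unadjusted p under 0.05 were Socs3 with GK+hP against GK (log2 fold change 1.02, SE 0.33, adjusted p = 0.253) and with GK+mP against GK (0.89, SE 0.33, adjusted p = 0.246). With the mouse as a block their adjusted p was 0.064 and 0.076. With the block and without the GK+mP library of mouse 1, Socs3 with GK+mP against GK was at 1.15 (SE 0.34, adjusted p = 0.057). With the block and without the GK+mP library of mouse 1, Socs3 was called for GK+hP against GK (1.04, SE 0.30, adjusted p = 0.0454, against 3.97% of genes) and Hamp for GK+hL against GK (0.70, SE 0.18, adjusted p = 0.0264, against 3.33%). DESeq2 with the block also called Hamp there (0.70, SE 0.22, adjusted p = 0.0352, against 3.15%). In the main fit this value of Hamp was 0.65 (SE 0.54, adjusted p = 1.000).

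Within a mouse the members varied together to different degrees. Over the 10 conditions the 45 pairs of members had a median r of 0.55 in mouse 1, 0.29 in mouse 2 and 0.29 in mouse 3, with 43, 31 and 27 of the 45 above 0, and 0.47 in mouse 1 without its GK+mP library. The median over all pairs of genes was not computed, so whether the set differs from other genes was not tested. Genes outside the set reached similar values over the 30 samples with each mouse centred on its own mean. Saa1 was then at 0.87 with Psmb6 and 0.85 with Orm1, and Saa3 at 0.86 with Pfdn5 and 0.79 with Lcn2. Over the 10 conditions of a mouse, log2 CPM of Saa1 and Saa2 correlated at r = 0.99 in mouse 1, 0.86 in mouse 2 and 0.95 in mouse 3 (Pearson, n = 10 samples each, Spearman 0.98, 0.76 and 0.94), as a description of samples that share a preparation. The part that reads matching both genes have in this was not tested. Saa1 and Orm1 correlated at 0.94, 0.74 and 0.68, and Lcn2 and Hp at 0.92, 0.45 and 0.74. Without its GK+mP library, the values of mouse 1 were 0.97 for Saa1 and Saa2, 0.81 for Saa1 and Orm1 and 0.74 for Lcn2 and Hp. Across mice, Lcn2 had its highest median in mouse 3, where Hp had its lowest. The pairs named here were chosen after their values were seen. Among Saa1, Saa2, Saa3, Lcn2 and Orm1 the median r of the 10 pairs was 0.93 in mouse 1, 0.36 in mouse 2 and 0.63 in mouse 3, and 0.79 in mouse 1 without its GK+mP library. The 9 pairs with Socs3 had a median r of 0.04, 0.03 and -0.19.

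**Figure D5:**
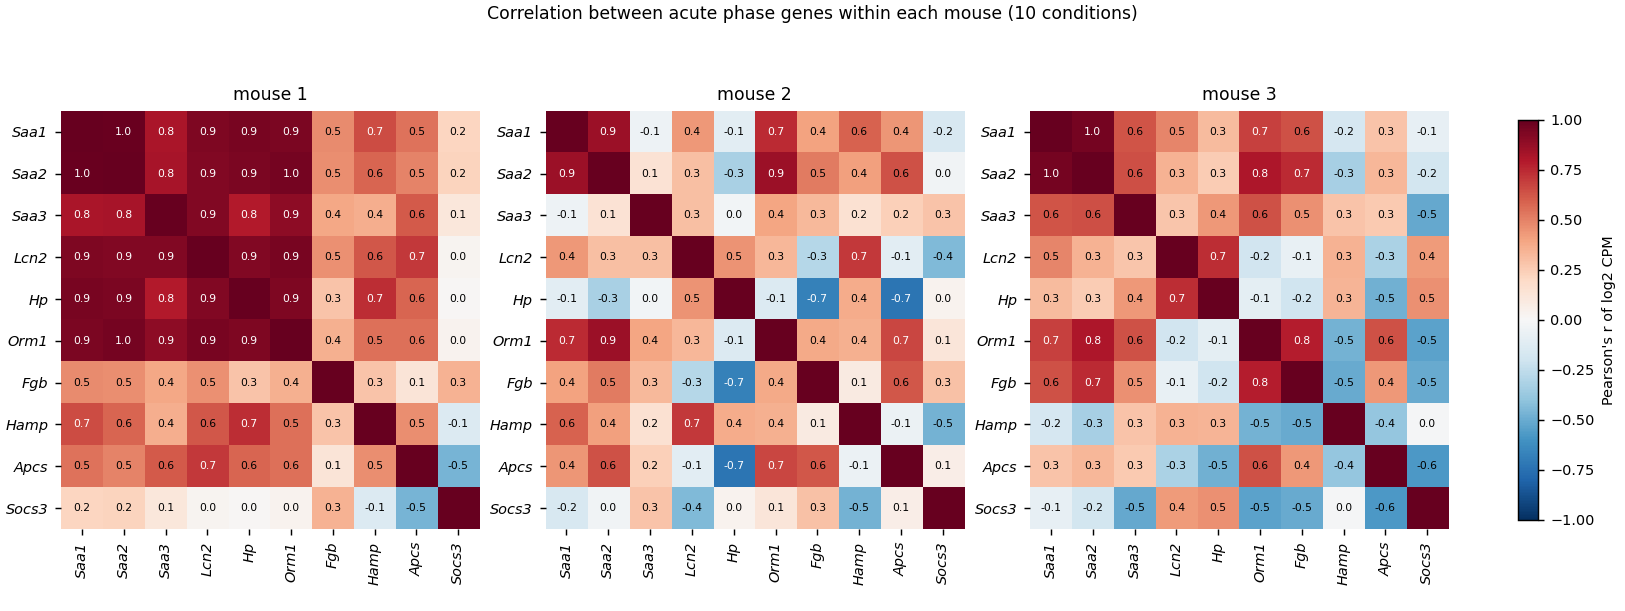
Pearson's r between log2 CPM of each pair of genes over the 10 conditions of 1 mouse (a square per pair, red positive, blue negative, printed to 1 decimal), with a panel per mouse. Saa1, Saa2 and Orm1 are positive with each other in the 3 mice. The median of the 10 pairs among Saa1, Saa2, Saa3, Lcn2 and Orm1 is highest in mouse 1 (0.93, and 0.79 without its GK+mP library). The 9 values of Socs3 have medians of 0.04, 0.03 and -0.19.

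Over all 30 samples, the 2 genes outside the set most like Fgb were Fga (r = 0.93) and Fgg (0.91), the other chains of fibrinogen, and Fga stayed first when each mouse was centred on its own mean (0.87). Hamp was most like Selenbp1 (0.95, and 0.81 centred), Hp like H2-K1 (0.96) and Lcn2 like Retsat (0.93). Saa3 was most like Glrx (0.82) and Orm2 (0.80), and Saa1 and Saa2 like Apoc1 (0.80 and 0.85). Socs3 was most like Bpgm (0.73) and Elf3 (0.71). These values include the differences between the 3 mice.

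The rest of the pathway was read from lists chosen beside the members. Of 36 other positive acute phase genes 0 were called in the GKRP, GK and 446L comparisons, with medians of 0.03 for the GKRP vectors against untreated, -0.01 for GK against untreated and 0.03 for 446L against 446P. The medians of the members were 0.03, -0.01 and -0.03, and those of all genes 0.00 in each. In these 3 comparisons C-reactive protein (Crp) was at 0.12 (SE 0.21), 0.05 (SE 0.27) and 0.03 (SE 0.13). For the GKRP vectors against untreated Fga was at 0.01 (SE 0.29), Fgg at 0.04 (SE 0.29), Orm2 at -0.01 (SE 0.21) and Hamp2 at -0.15 (SE 0.42). Of 12 negative acute phase genes, such as Alb and Ttr, which fall in inflammation, 0 were called in the same comparisons. In the interleukin 6 and STAT3 list 0 of 22 tested genes were called. Il6ra, the receptor, was at -0.34 (SE 0.14, adjusted p = 0.353) and Stat3 at -0.33 (SE 0.14, adjusted p = 0.397) for the GKRP vectors with GK against GK, where Cebpb was at -0.09 (SE 0.35). In the interleukin 1, TNF and NF-kB list 0 of 23 were called, and the inhibitor Nfkbia was at -0.23 (SE 0.19) for the GKRP vectors against untreated. Of 9 glucocorticoid response genes 0 were called.

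In the list of BMP and iron genes that control hepcidin 1 of 22 was called, Neo1, a neogenin that binds the BMP co-receptor hemojuvelin. It rose with the GKRP vectors by 0.71 against untreated (SE 0.11, edgeR adjusted p = 2.69e-04), where 1.89% of all genes were called. With GK it rose by 0.75 against GK alone (SE 0.11, adjusted p = 1.71e-04), where 1.61% were called. For GK against the 5 combined groups it was at -0.77 (SE 0.17, adjusted p = 0.0263), against 0.427% of genes. Those groups include the GKRP vectors, with which Neo1 was higher than untreated, so this value does not separate GK from GKRP. For GK against untreated hepatocytes no gene was called as lowered, and the value of Neo1 is not given here. Bmp6 was at -0.31 (SE 0.37) for the GKRP vectors against untreated and at 0.07 (SE 0.38) for those with GK against GK. For 446L against 446P it was at -0.13 (SE 0.25), and 0 of the 22 were called there.

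The related lists were also compared between the mice, where 39.2% of all genes tested differed. Of the 36 other positive acute phase genes 25 differed, with a median of the largest log2 difference of 0.61 against 0.43 for the members and 0.37 for all genes tested. The interleukin 1 receptor antagonist Il1rn was at 23.6 ± 7.88 CPM in mouse 1 (SD, n = 10 samples), 3.32 ± 0.87 CPM in mouse 2 and 9.24 ± 1.64 CPM in mouse 3, and Cd14, the endotoxin co-receptor, at means of 287, 71.7 and 131 CPM. The protease inhibitors Serpina3m and Serpina1e were highest in mouse 2, at 2221 and 80.0 CPM. Fga (2103, 3970 and 3128 CPM) and Fgg (1181, 2169 and 1837 CPM) had the order of Fgb, and Crp was lowest in mouse 1 (234, 365 and 325 CPM). Of the NF-kB list 18 of 23 differed, with a median of 0.65. The chemokines Ccl2 (44.0, 5.70 and 27.0 CPM) and Cxcl1 (69.8, 10.5 and 40.2 CPM) were highest in mouse 1 and lowest in mouse 2. Of the interleukin 6 list 9 of 22 differed, with a median of 0.38, and of the BMP and iron list 12 of 22, with a median of 0.43. Atoh8, a BMP target, was at 1.50, 12.2 and 2.06 CPM and the hemojuvelin gene Hjv at 8.10, 4.47 and 3.46 CPM. Erfe, Bmp2 and Tfrc had larger log2 differences than Hjv (2.27, 1.47 and 1.22 against 1.20). Id1 (1.64, 1.97 and 1.73 CPM) and Smad7 (2.77, 2.03 and 3.09 CPM) of the same list were not called. Hamp2 followed Hamp, with 6.35, 15.4 and 14.8 CPM. Of the negative acute phase genes 11 of 12 differed, and of the glucocorticoid response genes 6 of 9.

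Markers of other cells moved with the mouse too. The summed CPM of 13 macrophage markers (scaled to total reads) was 290 to 329 in mouse 1, 271 to 353 in mouse 2 and 311 to 399 in mouse 3. Cd68 made up much of these sums (131, 235 and 210 CPM), and the sum of the other 12 had a median of 177 in mouse 1, 88.7 in mouse 2 and 127 in mouse 3. Of the 13 markers 11 differed between mice, with Cd5l at 44.6, 17.4 and 23.0 CPM. The sum of 12 endothelial and stellate cell markers was 66.5 to 121 in mouse 1, 186 to 215 in mouse 2 and 162 to 205 in mouse 3. Reln carried the sum of mouse 2 (12.8, 121 and 33.8 CPM), and without it the sums were 61.4 to 102 in mouse 1, 78.5 to 90.6 in mouse 2 and 135 to 168 in mouse 3. The sum of 5 cholangiocyte markers was 150 to 249 in mouse 1, 14.4 to 21.8 in mouse 2 and 23.4 to 35.8 in mouse 3. Spp1 carried the sum of mouse 1 (158, 7.79 and 13.3 CPM), and without it the 3 mice overlapped. The sums were then 11.9 to 19.6 in mouse 1, 6.89 to 15.3 in mouse 2 and 10.3 to 23.3 in mouse 3. The 10 neutrophil markers summed to at most 0.57 CPM, with 7, 3 and 6 of them at 0 reads in every sample of mice 1, 2 and 3, and 5 lymphocyte markers to at most 0.377 CPM. The 10 hepatocyte markers summed to 80644 to 93654 CPM in mouse 1, 115341 to 125931 CPM in mouse 2 and 94714 to 109677 CPM in mouse 3, and 8 of the 10 differed. Of the endothelial and stellate markers that could be tested 9 of 9 differed, and of the cholangiocyte markers 2 of 2. The part of other cells in the differences between mice was not tested. Between the 446P and 446L samples the macrophage sum was 271 to 399 and 286 to 362 CPM, and 0 of the 13 markers were called.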

How the data were processed

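RNA-sequencing libraries of 36 hepatocyte cultures were quantified by the authors with Salmon 1.4.0 on GRCm39 transcripts. The deposited files hold estimated counts and TPM per transcript. Estimated counts of 137570 of 139225 transcripts (98.8%) were summed to 52230 genes through Gencode names, and unmatched transcripts held 0.392% to 0.639% of reads. After rounding, the paired cultures of a mouse within a condition were added, giving 30 samples. Genes passing filterByExpr (minimum 10 reads, 12177 genes) were normalized by TMM (factors 0.901 to 1.094) and tested with edgeR 4.0.16 in R 4.3.3 (quasi-likelihood F test, Benjamini-Hochberg adjustment, 95% intervals). The call rule was an adjusted p below 0.05 and a fold of 1.3 or more or of 0.7 or less (between mice, a largest fold of 1.3 or more). Printed p-values beside n under 10 come from these fits across all genes. The deposited TPM were used only to compare levels between genes.

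The study's own tool, DESeq2 (here 1.42.0), was an alternative, as was the mouse as a block. The pairing comes from the labels, since samples of the same number share an animal: deviations correlated at 0.223 on average over 135 pairs from the same mouse (82.2% over 0.1) and at -0.110 over 270 pairs from different mice. Further alternatives were size factors, no filter, a transcript length offset, 36 separate cultures, summed paralogs and leaving out each mouse. Leaving out the GK+mP library of mouse 1 or the GK culture of mouse 3 with Gckr reads, and for single vectors DESeq2 with the block and summed paralogs, were chosen after seeing the data. Scripts were tested on simulated data. Named genes were the 10 members, the genes most like each, the fixed related genes and, between mice, list genes with large differences. Hjv, Id1 and Smad7 were chosen after their values were seen. Members and lists were chosen with earlier results of these data known. One item is not reported here.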

Additional observations from a re-analysis of the deposited data

Results flagged for a closer look

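Socs3 in the 6 GK cultures held 1 value far from the others: a culture of mouse 1 was at 4.07 CPM, while the other 5 lay between 1.60 and 2.27 CPM, and the median of the 6 was 2.15 CPM. This was 1 of 20 groups of 6 cultures examined (10 genes in the untreated and GK conditions). Chance gives about 1 such value in 20 groups if the 6 values are independent. Here they are 2 cultures from each of 3 mice, so that rate is only a guide. In the untreated condition both cultures of mouse 1 were high for Socs3 (4.84 and 4.81 CPM), against 1.71 to 2.19 CPM in mice 2 and 3. The cause was not tested.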

How the results depend on the processing

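With the mouse as a replicate block in edgeR, 0 members were called in every treatment comparison, as in the fit without it. For 446L against 446P this stood beside 0.485% of all genes. The shares under this block for the other comparisons are not given here. For 446L against 446P, 1 member was called by DESeq2 with the block (Hamp), against 0.788% of genes. With the block and without the GK+mP library of mouse 1 there were 2 (Hamp and Socs3), against 0.514%. For the single vectors these counts were also 1 and 2, against 3.15% to 3.97% of genes. Between mice, 2 members were called with a transcript length offset, against 19.4% of genes. When 1 mouse was left out, 2 were called without mouse 1, 4 without mouse 2 and 5 without mouse 3, where fewer samples were compared. The shares of all genes there were 14.9%, 22.8% and 32.9%. The cause of the other changes was not tested. Differences near 0 changed sign often, most under the length offset (48 of 150 values over the members and 15 treatment comparisons) and when a mouse was left out (29 to 37 of 150), and under the replicate block 8 of 150 did. None of the values that changed sign was called. For 446L against 446P, Hamp stayed above 0 (0.27 to 0.51) and Socs3 below 0 (-0.86 to -0.38) in the 15 alternatives run. These refit the same samples or part of them, so a kept sign is no separate evidence for either difference. Socs3 rests on 9 to 48 reads and Hamp on 32 to 317 reads per sample, which limits the precision of both.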
